A study of Mus musculus with 9 samples.

Results

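NF-kB is a family of dimeric transcription factors, and the 10 genes described here encode its 5 DNA-binding subunits (Rela, Rel, Relb, Nfkb1 and Nfkb2), 4 ankyrin-repeat IkB proteins (Nfkbia, Nfkbie, Nfkbiz and Bcl3) and the ubiquitin-editing inhibitor A20 (Tnfaip3). Their regions were 121 of the 61540 peaks of an ATAC-seq table. A peak was taken if it overlapped the RefSeq body of 1 of the 10 genes, or if it overlapped no protein-coding gene and had that gene as its nearest protein-coding body within 100 kb. By this rule 63 peaks lay in the bodies and 58 outside them, the farthest 89546 bp away, near Tnfaip3. Nearness leaves unknown which gene, if any, a peak controls.

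In resting cells IkB proteins hold NF-kB dimers in the cytoplasm. Toll-like receptors such as TLR9, the endosomal receptor for CpG DNA, signal through the adaptor MyD88 to IkB kinase, which marks IkBα for degradation and lets Rela- and Rel-containing dimers reach the nucleus. Many NF-kB genes, Nfkbia and Tnfaip3 among them, are themselves NF-kB targets, so that the pathway limits its own activity. In B cells, Rel and Rela act in activation and survival, and Relb with the processed form of Nfkb2 acts downstream of receptors such as CD40.

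ATAC-seq, in which a transposase cuts open DNA, had been done on age-associated B cells, a subset that accumulates with age and in lupus. The cells were sorted from spleens of MRL/lpr (MRL.Faslpr) mice aged 20 weeks, made as mixed bone-marrow chimeras of 3 donor genotypes. All groups therefore carry the lpr change in Fas, and differ in Tlr9: absent (TLR9-/-, called KO here), carrying the P915H change in the signalling domain on both alleles (P915H/P915H, called P915H) or intact (WT). There were 3 samples of each genotype, 9 in all. The labels say neither which samples shared a host, nor what cells the hosts kept, nor whether replicates are separate mice. The p-values therefore cover only the variation among these 9 libraries, and some of it may be technical.

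Values are log2 of reads in peaks scaled as CPM (reads relative to the sample's total), with the read depth unknown. A replicate effect per peak had been removed from them before deposit. That removal can narrow the spread within a genotype that the SDs and the overlap of samples given here show. Each comparison was fitted with limma over all 61540 peaks, and a peak is called changed at a Benjamini-Hochberg adjusted p under 0.05. Peaks were present at 6 of 6 genes marking age-associated B cells and 7 of 7 marking B cells, while Cd4, Cd8a, Ncr1, Lyz2, S100a8, S100a9, Gata1, Hbb-bs and the plasma cell gene Tnfrsf17 had none. Other genes of those lists did have peaks: 3 of 5 T cell genes, 1 of 2 natural killer cell genes (12 peaks), 3 of 4 plasma cell genes (40 peaks), 1 of 3 neutrophil genes and 1 of 3 erythroid genes. The log2 sums over the B cell list were 10.40 to 10.50 in KO, 10.53 to 10.57 in WT and 10.54 to 10.63 in P915H. Those over the macrophage and monocyte list (3 of 4 genes with peaks) were 7.25 to 7.38, 7.45 to 7.61 and 7.60 to 7.72 in that order. On both lists all KO samples thus lay below all WT samples too, while on the erythroid list (1 peak) they lay above them. The dendritic cell list (3 of 3) stood at 8.57 to 8.61 in KO, 8.60 to 8.63 in WT and 8.64 to 8.73 in P915H. The sums of the other 6 lists overlapped between KO and P915H. The part of these shifts in the results on NF-kB genes was not tested, and in such bulk libraries fewer cells with an open region and less opening per cell cannot be told apart. WT replicate 3 was the lowest WT sample at 56.7% of all peaks within 1 kb of a start, against 32.2% of peaks farther away. After the removal of the replicate effect, a low value there goes with higher values in replicate 3 of the other genotypes. Which of these samples departed therefore cannot be told. Without WT replicate 3, 0 of the 121 peaks were called for KO against WT, and all 11 calls given below for KO against P915H were kept.

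Start-site sequences were available for 7 of the 10 genes from RefSeq (GRCm38.p6, the assembly of mm10), as 10 windows from 250 bases before to 50 after a start. The 150 bases before the start are printed for the 3 IkB or A20 genes and the 2 subunit genes with a match before the start to the kappaB consensus, the 10-base sequence that NF-kB binds, and for Rela, whose window has none. Capitals mark the kappaB matches, and each sequence reads towards the start.
Nfkbia, chr12:55492648-55492797, minus strand: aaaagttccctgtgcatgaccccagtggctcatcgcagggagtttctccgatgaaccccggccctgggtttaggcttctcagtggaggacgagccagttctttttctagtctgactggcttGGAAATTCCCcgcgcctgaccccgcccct
Nfkbie, chr17:45555550-45555699, plus strand: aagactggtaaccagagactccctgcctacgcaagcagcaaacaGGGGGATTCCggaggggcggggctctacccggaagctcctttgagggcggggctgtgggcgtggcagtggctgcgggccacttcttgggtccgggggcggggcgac
Nfkb2, chr19:46304587-46304736, plus strand: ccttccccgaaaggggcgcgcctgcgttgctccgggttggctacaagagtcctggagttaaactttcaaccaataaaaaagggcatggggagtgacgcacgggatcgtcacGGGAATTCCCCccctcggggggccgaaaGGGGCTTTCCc
Rel, chr11:23770970-23771119, minus strand: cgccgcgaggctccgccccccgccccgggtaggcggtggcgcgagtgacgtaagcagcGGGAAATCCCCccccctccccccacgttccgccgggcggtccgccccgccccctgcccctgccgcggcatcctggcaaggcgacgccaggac
Tnfaip3, chr10:19015411-19015560, minus strand: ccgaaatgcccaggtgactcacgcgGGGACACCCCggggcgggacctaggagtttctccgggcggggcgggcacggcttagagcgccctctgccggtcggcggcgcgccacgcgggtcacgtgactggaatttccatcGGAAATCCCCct
Rela, chr19:5637391-5637540, plus strand: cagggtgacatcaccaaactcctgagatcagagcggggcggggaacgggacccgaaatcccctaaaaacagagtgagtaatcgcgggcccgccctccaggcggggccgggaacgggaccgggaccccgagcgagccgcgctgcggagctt

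A kappaB match on either strand stood in 8 of the 10 windows, which belong to 6 of the 7 genes. Of all 32851 windows in the table, 4.51% held one. Counted from the start site at position 0, the Nfkbia match ran from -29 to -20, the Nfkbie match from -106 to -97 and the Rel match from -92 to -83, where a second match, 1 base on, overlaps it. Tnfaip3 had a match from -125 to -116 and another from -12 to -3. At its printed start Nfkb2 had one from -39 to -30, with an overlapping match beside it, and one from -11 to -2. At another start Nfkb2 had one from -236 to -227 and one from 10 to 19. The latter is also the only match in the window of its remaining start (-225 to -216), so it is counted in both windows. The Bcl3 match lay after the start, from 2 to 11. Of 12 match positions over all windows, 5 lay inside a deposited peak: those of Nfkbia, Nfkbie and Bcl3 and both of Tnfaip3. A match describes letters and shows no binding. For comparison, the AP-1 consensus stood in 5.20% and the PU.1 core GAGGAA in 28.3% of all windows, and among the windows of these genes AP-1 matched once each in Tnfaip3 and Nfkbie and PU.1 once in Rel.

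Accessibility at the starts of NF-kB genes did not differ between genotypes beyond the test's threshold. Of the 121 peaks, 24 had their centre within 1 kb of a start site or, for the 3 genes without a start-site window (Nfkb1, Relb and Nfkbiz), of an end of the body, and 0 of 24 passed limma's test in any comparison. Without adjustment, 1 of the 24 had a p under 0.05 for KO against WT, 0 for P915H against WT and 3 for KO against P915H. The 95% confidence intervals of the 24 log2 fold changes reached from -0.69 to 0.76 at the widest for KO against P915H, from -0.51 to 0.70 for KO against WT and from -0.77 to 0.77 for P915H against WT. Among all peaks of the table within 1 kb of a start, 5.47% were called for KO against P915H.

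The Nfkbia peak that holds the kappaB match printed above (chr12:55492503-55492775) read 5.67, 5.66 and 5.67 in the KO samples, 5.52, 5.54 and 5.23 in WT and 5.56, 5.55 and 5.85 in P915H. KO and P915H overlapped, with a log2 fold change of 0.01 (95% interval -0.26 to 0.28), and WT replicate 3 was the lowest of the 9. The upstream start of Tnfaip3 (chr10:19015272-19015626) read 4.93, 5.06 and 5.22 in KO, 5.07, 5.16 and 4.50 in WT and 4.93, 4.73 and 5.22 in P915H. Again WT replicate 3 was the lowest and the groups overlapped (0.11 for KO against P915H, interval -0.32 to 0.53). A second Tnfaip3 start in the table (chr10:19011776-19012281) read 3.03, 3.11 and 3.01 in KO, 2.75, 2.73 and 2.82 in WT and 2.68, 2.62 and 2.63 in P915H. There all KO samples lay above all others, by 0.41 against P915H (SE 0.15), with a limma adjusted p of 0.099.

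The start peaks of Rel, Nfkbie, Bcl3 and Nfkb2 gave no call either. The Rel start peak (chr11:23770811-23770998), of the subunit prominent in activated B cells, averaged 4.13 ± 0.14 (SD, n = 3) in KO samples, 4.10 ± 0.14 in WT samples and 4.11 ± 0.20 in P915H samples. At Nfkbie, which encodes IkBε, the start peak (chr17:45555539-45555739) averaged 5.16 ± 0.21, 5.06 ± 0.16 and 4.98 ± 0.11 in that order. At Bcl3, a nuclear IkB protein that acts with p50 and p52, it (chr7:19822698-19822950) averaged 2.35 ± 0.07, 2.47 ± 0.08 and 2.38 ± 0.07. The peak over a start of Nfkb2, the gene of the p100 precursor (chr19:46305473-46305711), read 5.04, 5.05 and 5.08 in KO, 5.01, 4.98 and 4.40 in WT and 4.87, 4.88 and 5.44 in P915H, with WT replicate 3 the lowest once more. All of these overlapped between KO and P915H. The peak over an end of the Nfkbiz body (chr16:55838676-55839022) did not: it read 4.22, 4.10 and 3.98 in KO. It read 3.68, 3.93 and 3.89 in WT and 3.94, 3.82 and 3.97 in P915H (limma adjusted p = 0.414 for KO against P915H). The peak over an end of the Nfkb1 body (chr3:135691680-135691981) overlapped between KO and P915H (0.17, limma adjusted p = 0.650). At its neighbour within 1 kb of that end (chr3:135691380-135691568), all KO samples lay below all P915H samples (-0.41, limma adjusted p = 0.0598). Rela and Relb had no peak over a start or body end.

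KO was set against WT to ask what loss of the receptor changed at these genes. None of the 121 peaks passed limma's test, where 0.0195% of all peaks did, and 13 (10.7%) had an unadjusted p under 0.05, where 18.7% of all peaks did. The median log2 fold change over the 121 peaks was -0.0026 and that over all peaks 0.0014. A peak 89249 bp upstream of Tnfaip3, described below, came closest with an adjusted p of 0.0689. By summed accessibility, the antilogs added over all peaks of a gene, 0 of the 10 genes were called (0.193% of 15036 protein-coding genes were), with an unadjusted p under 0.05 for Nfkbia alone.

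P915H was set against WT to ask what the altered receptor changed. Again 0 of 121 peaks passed limma's test, against 0.255% of all peaks, and 6 (4.96%) had an unadjusted p under 0.05, against 7.72% of all. Of those 6 peaks, 4 lie at Nfkb1 and 2 at Nfkbia. For summed accessibility 0 of 10 genes passed, against 0.419% of all genes, and none had an unadjusted p under 0.05.

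The comparison of KO with P915H, which sets absence of TLR9 against presence of the altered protein, was the one in which peaks of these genes were called, at 6 of the 10 genes. It shares its samples with the other 2 comparisons. Of the 121 peaks, 11 (9.09%) passed limma's test, 7 more accessible in KO (5.79%) and 4 less (3.31%). Among all peaks 15.5% passed, 6.55% higher and 8.97% lower in KO. The difference between the shares was not tested, and it did not hold under every setting: without KO replicate 1 they were 17.4% at these genes and 16.8% of all peaks, and at an adjusted p under 0.1 they were 22.3% and 22.0%. Without adjustment 32 peaks (26.4%) had a p under 0.05, against 29.0% of all peaks, and the median size of the log2 fold change was 0.20, against 0.23. None of the 11 lay within 1 kb of a start or body end, 4 lay in gene bodies and 7 outside. Farther than 1 kb from a start of their own gene or, for 3 genes, from a body end, 11 of 97 peaks (11.3%) were called. Of all peaks farther than 1 kb from any listed start site 19.4% were, so the 2 sets are not defined alike. The higher peaks belonged to Nfkb1, Nfkbia and Nfkbie, the lower ones to Relb, Nfkbiz and Tnfaip3, and Rela, Rel, Nfkb2 and Bcl3 had none. In all 11 the KO and P915H samples did not overlap and the WT mean lay between them. The peaks were chosen for that difference, which favours both. The share over all peaks was not taken, so the count says nothing particular to these genes. With 1 sample left out the count ranged from 2 (without KO replicate 2 or P915H replicate 2) to 21 (without KO replicate 1), with 4 without KO replicate 3 and 6 without P915H replicate 3. The split of directions moved too, to 9 higher and 12 lower without KO replicate 1, 5 and 6 without P915H replicate 1, and 7 and 1 in a fit with no intensity trend, which ended 5 of the 11 calls (Relb, Nfkbie, Nfkbiz, the Nfkb1 peak at chr3:135594362-135594567 and the proximal Tnfaip3 peak).

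**Figure D1:**
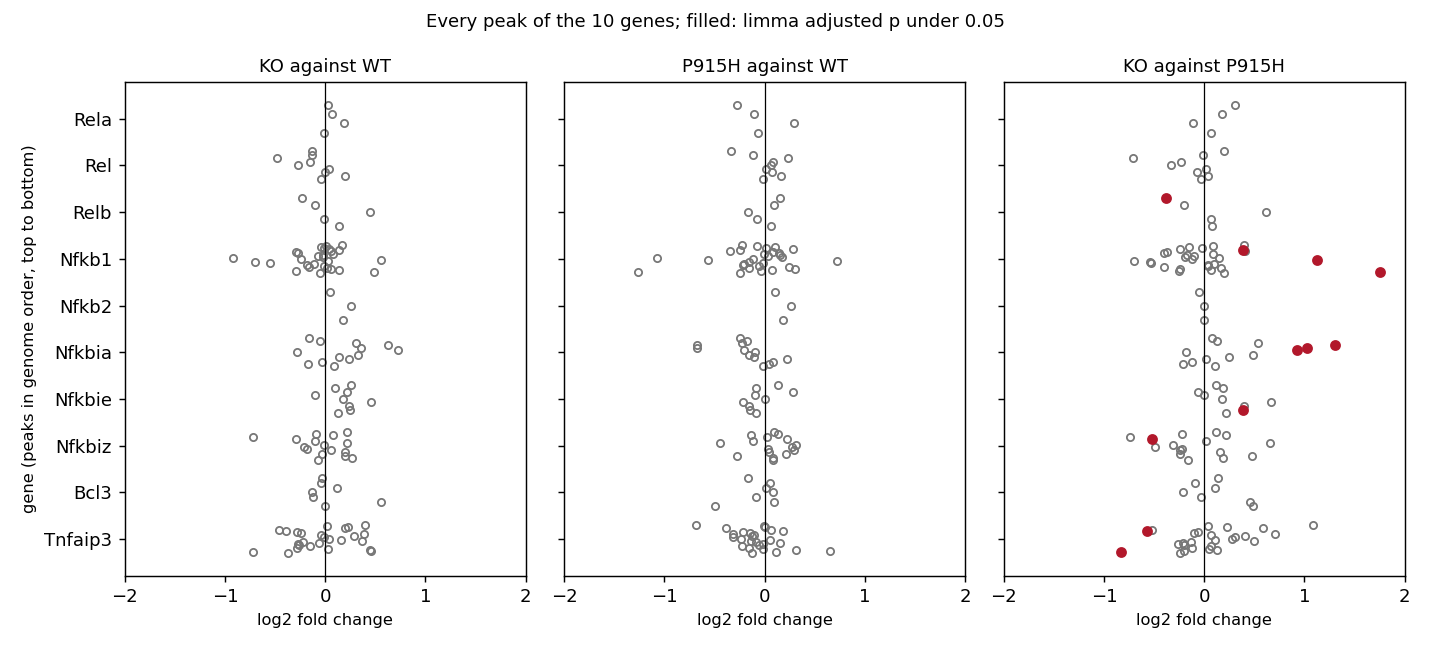
Log2 fold change (x axis) of each of the 121 peaks, by gene (y axis), in 3 panels for KO against WT, P915H against WT and KO against P915H. Filled red points are peaks with a limma adjusted p under 0.05; they appear in the third panel alone, 7 to the right of 0 and 4 to the left.

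Among the subunits that carry a transactivation domain, Relb alone had a called peak. It lies in the Relb body (chr7:19615230-19615451) and read 5.23, 5.16 and 5.21 in KO, 5.38, 5.40 and 5.52 in WT and 5.61, 5.66 and 5.49 in P915H. Every KO sample was below every WT and P915H sample. The difference from P915H was -0.38 (SE 0.10, limma adjusted p = 0.0267) and that from WT -0.23 (adjusted p = 0.243). The call was kept in 5 of 9 fits with 1 sample left out, and ended without KO replicate 2 or 3 or P915H replicate 1 or 2. At Rel, 6 peaks in the body and 3 outside gave no call. The nearest was a peak in the body within 1 kb of the start (chr11:23770177-23770399), at 5.10, 5.02 and 4.98 in KO, 5.38, 5.29 and 5.26 in WT and 5.23, 5.40 and 5.47 in P915H. There KO lay below both other groups without overlap (-0.33 against P915H, adjusted p = 0.0619). Rela, the subunit of the classical p50 and p65 dimer, had 4 peaks and a smallest adjusted p of 0.300.

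Nfkb1, the gene of the p105 precursor of p50, had 29 peaks, of which 3 were higher in KO and 0 lower. The peak at chr3:135665915-135666337, inside the body, read 3.61, 4.06 and 3.74 in KO, 3.48, 2.99 and 3.27 in WT and 2.64, 2.68 and 2.71 in P915H. The 3 groups did not overlap at all. The KO level was 2.18-fold that of P915H (log2 1.13, SE 0.18, adjusted p = 0.00432), while KO against WT gave 0.56 (adjusted p = 0.144) and P915H against WT -0.57 (adjusted p = 0.407). This is the sole call of the 11 that was kept with each of the 9 samples left out in turn.

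A weaker region 35429 bp beyond the higher-coordinate end of Nfkb1 (chr3:135727398-135727596) read 1.60, 2.40 and 1.25 in KO, 1.10, 1.27 and 1.40 in WT and 0.30, -0.67 and 0.35 in P915H. The KO and WT samples overlapped, and the P915H samples lay below both. Its log2 fold change of KO against P915H, 1.75 (SE 0.42, adjusted p = 0.0201), was the largest in size of the 121 peaks in that comparison, and the call ended without KO replicate 2 or P915H replicate 2. The region also had the lowest mean of the 121 peaks (1.00) and the lowest single value (-0.67), so this fold change sits at the low end of the set. The other called peak in the body (chr3:135594362-135594567) read 5.08, 4.96 and 4.91 in KO, 4.76, 4.93 and 4.84 in WT and 4.58, 4.53 and 4.66 in P915H. P915H was again below both groups (0.39 for KO against P915H, SE 0.11, adjusted p = 0.0396), but the call was kept in 1 of 9 fits with a sample left out, that without WT replicate 3. Not all of Nfkb1 leaned one way: a peak at chr3:135686596-135686797, also in the body, was at 3.60, 3.21 and 3.29 in KO and 3.62, 4.08 and 4.00 in P915H (-0.53, adjusted p = 0.0594). Summed over the 29 peaks, Nfkb1 differed by -0.03 between KO and P915H (95% interval -0.18 to 0.11). Nfkb2 had 3 peaks and no call, and its peak just before the printed start (chr19:46304476-46304689) averaged 6.41 ± 0.08 (SD, n = 3) in KO and 6.47 ± 0.05 in P915H.

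**Figure D2:**
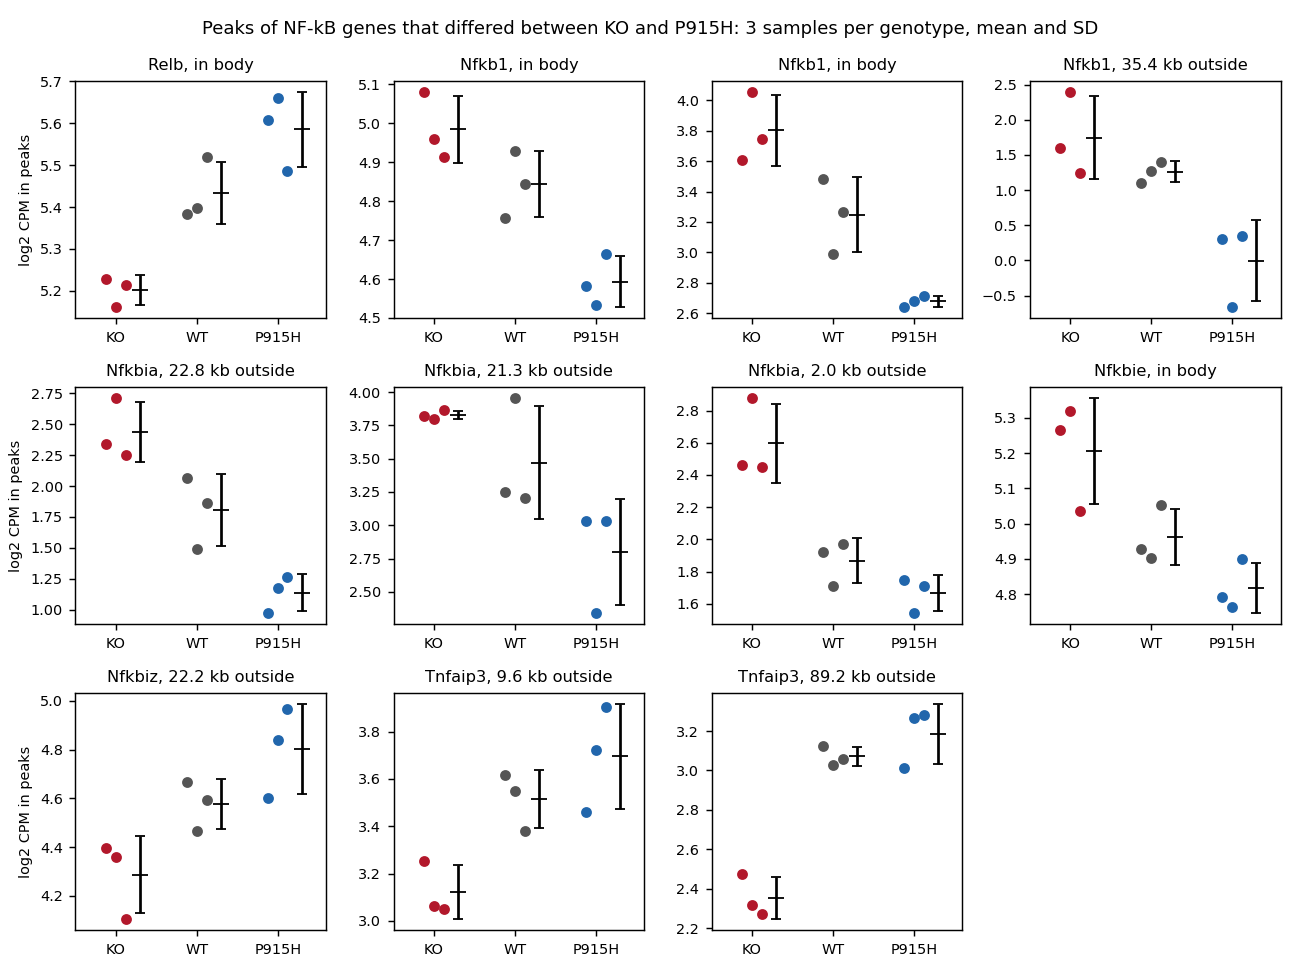
Log2 CPM in peaks (y axis, a separate range in each panel that does not start at 0) of the 11 peaks that differed between KO and P915H, in the 3 samples of each genotype (x axis); bars are the mean and SD of 3. The KO and P915H points do not overlap in any panel, and in the last panel, the distal Tnfaip3 peak, WT and P915H overlap with KO below both.

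Nfkbia encodes IkBα, the inhibitor that is degraded and resynthesised as the classical pathway turns on and off. Of its 13 peaks, 3 were higher in KO than in P915H and 0 lower. All 3 lie downstream of the gene, which is on the minus strand. The farthest (chr12:55466342-55466631, 22778 bp from the body) read 2.34, 2.72 and 2.26 in KO, 2.07, 1.49 and 1.87 in WT and 0.97, 1.17 and 1.26 in P915H. KO, WT and P915H formed 3 steps without overlap. The KO level was 2.47-fold that of P915H (log2 1.30, SE 0.25, adjusted p = 0.00851), a call that ended without KO replicate 2 alone (adjusted p = 0.0546).

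Its neighbour (chr12:55467844-55468070, 21339 bp from the body) read 3.82, 3.80 and 3.86 in KO, 3.25, 3.96 and 3.21 in WT and 3.03, 2.34 and 3.03 in P915H. WT overlapped KO here and not P915H, and KO stood above P915H by 1.03 (SE 0.25, adjusted p = 0.0208). The third (chr12:55486813-55487384), 2025 bp from the end of the gene, read 2.46, 2.88 and 2.45 in KO, 1.92, 1.71 and 1.97 in WT and 1.75, 1.54 and 1.71 in P915H. In this peak WT overlapped P915H and KO stood above both, by 0.93 over P915H (SE 0.22, adjusted p = 0.0180) and 0.73 over WT (adjusted p = 0.116). Both calls were kept in 5 of 9 fits with a sample left out, with adjusted p up to 0.104 and 0.0998. The next protein-coding gene on that side is Psma6, 47883 to 68354 bp from these peaks. A further peak of the cluster, chr12:55465174-55465829, missed the threshold with an adjusted p of 0.0570, the smallest of the peaks not called.

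Nfkbie had 1 called peak among 9, in its body (chr17:45559817-45560030), at 5.27, 5.32 and 5.03 in KO, 4.93, 4.90 and 5.05 in WT and 4.79, 4.76 and 4.90 in P915H. KO lay above P915H and overlapped WT. The difference of 0.39 from P915H (SE 0.12) had an adjusted p of 0.0487, the closest to the threshold of the 11, and 2 of 9 fits with a sample left out kept it. Summed over its 9 peaks, Nfkbie stood 0.25 higher in KO than in P915H (95% interval 0.05 to 0.45, adjusted p = 0.107), and Nfkbia 0.17 higher (0.03 to 0.31, adjusted p = 0.119).

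**Figure D3:**
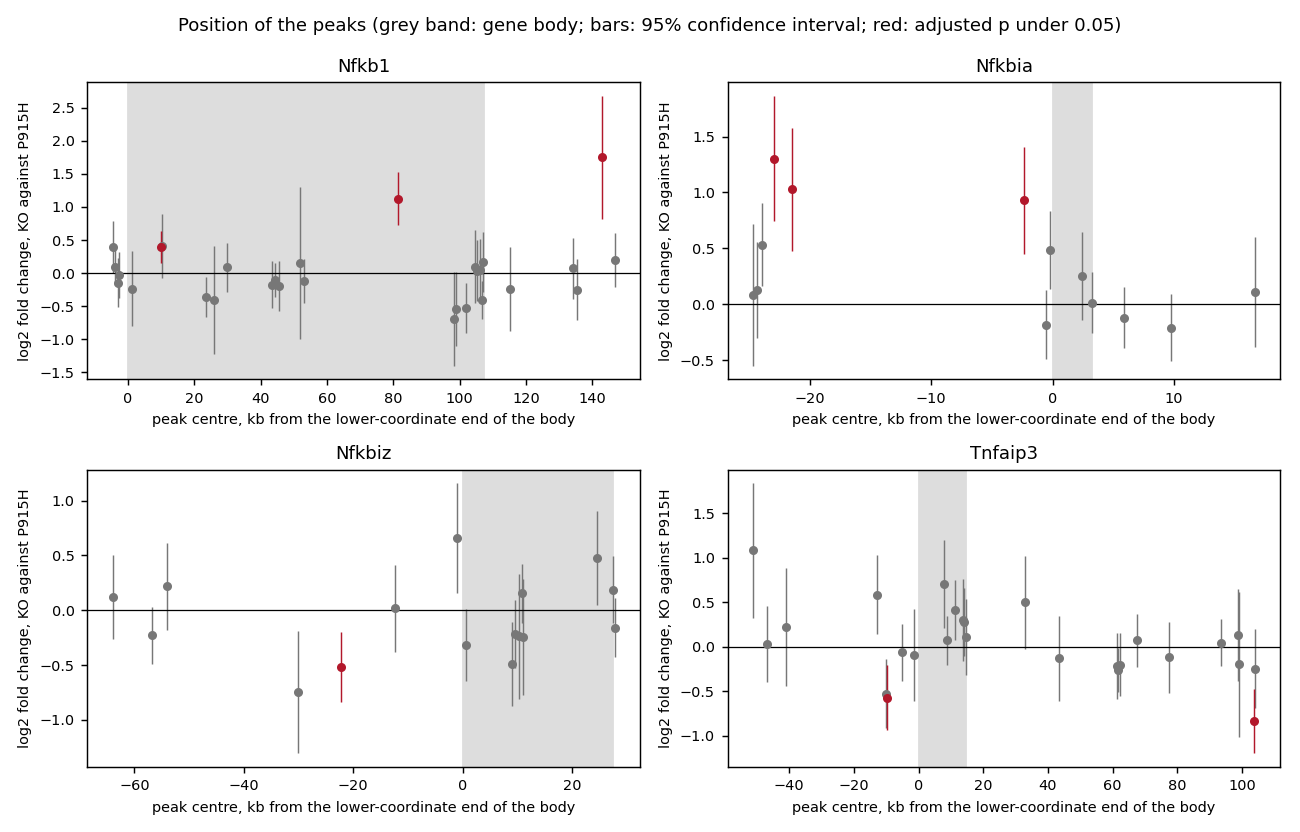
Log2 fold change of KO against P915H (y axis, 95% confidence interval as bars) against the distance of each peak's centre from the lower-coordinate end of the gene body, in kb (x axis), for Nfkb1, Nfkbia, Nfkbiz and Tnfaip3. The grey band is the body and red points are called; the 3 called Nfkbia peaks lie outside the band, 2025 to 22778 bp from the body, and those of Tnfaip3 lie on either side of it.

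The nuclear IkB proteins gave 1 call between them. IkBζ, the product of Nfkbiz, binds p50 in the nucleus and is induced by Toll-like receptors. Of its 16 peaks, the called one lies 22185 bp outside the body (chr16:55788975-55789190) and read 4.40, 4.36 and 4.10 in KO, 4.67, 4.47 and 4.59 in WT and 4.60, 4.84 and 4.97 in P915H. All KO samples were below all others (-0.52 against P915H, SE 0.14, adjusted p = 0.0342), and the call ended without replicate 2 or 3 of KO or of P915H. A second Nfkbiz peak 29919 bp outside (chr16:55781224-55781456) read 2.62, 1.76 and 2.35 in KO, 2.67, 3.24 and 2.99 in WT and 2.91, 3.19 and 2.86 in P915H, with adjusted p = 0.0732. Bcl3 had 7 peaks and no call. Its peak 1423 bp outside the body (chr7:19824247-19824463) read 3.64, 4.28 and 4.07 in KO, 3.69, 3.44 and 3.20 in WT and 3.65, 3.26 and 3.71 in P915H, where KO replicate 1 sat within both other groups (adjusted p = 0.183 against P915H).

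Tnfaip3 encodes A20, which removes activating ubiquitin chains and shuts off signalling to IkB kinase. It had 26 peaks, 20 of them outside the body, and 2 were lower in KO than in P915H with 0 higher. The distal one, 89249 bp upstream (chr10:19104659-19104900), read 2.47, 2.31 and 2.27 in KO, 3.13, 3.03 and 3.06 in WT and 3.01, 3.27 and 3.28 in P915H. KO stood alone below the other groups, which overlapped. The level in KO was 0.561 times that in P915H (log2 -0.83, SE 0.16, adjusted p = 0.00853) and 0.608 times that in WT (-0.72, adjusted p = 0.0689). P915H and WT differed by 0.12 (95% interval -0.24 to 0.48). The call against P915H ended without KO replicate 3 or P915H replicate 2 (largest adjusted p 0.0599).

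The proximal one, 9594 bp downstream (chr10:18991108-18991316), read 3.25, 3.06 and 3.05 in KO, 3.62, 3.55 and 3.38 in WT and 3.46, 3.72 and 3.90 in P915H. Here too KO lay below both groups and these overlapped (-0.57 against P915H, SE 0.16, adjusted p = 0.0403), and 3 of 9 fits with a sample left out kept the call. Other Tnfaip3 peaks leaned the other way without passing: one 51091 bp downstream (chr10:18949466-18949819) read 1.40, 2.03 and 1.95 in KO, 1.41, 1.08 and 1.71 in WT and 1.09, 0.80 and 0.25 in P915H (1.08 for KO against P915H, adjusted p = 0.0575). The sum over the 26 peaks differed by -0.04 (95% interval -0.17 to 0.09). Of the 11 called peaks, the Nfkbiz peak and the distal Tnfaip3 peak have a non-coding gene as a nearer body.

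By summed accessibility none of the 10 genes was called for KO against P915H, where 11.9% of all genes were. Unadjusted p-values were under 0.05 for Nfkbia, Nfkbie and Rel, the last with a log2 difference of -0.15 (95% interval -0.29 to -0.01, adjusted p = 0.173). For Nfkbia, the KO samples were at 7.31, 7.39 and 7.31, WT at 7.20, 7.22 and 7.14 and P915H at 7.16, 7.09 and 7.23. Each KO sample was above each WT and P915H sample. For the other 7 genes the 95% intervals of the log2 difference reached from -0.25 (Nfkbiz) to 0.26 (Rela).

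**Figure D4:**
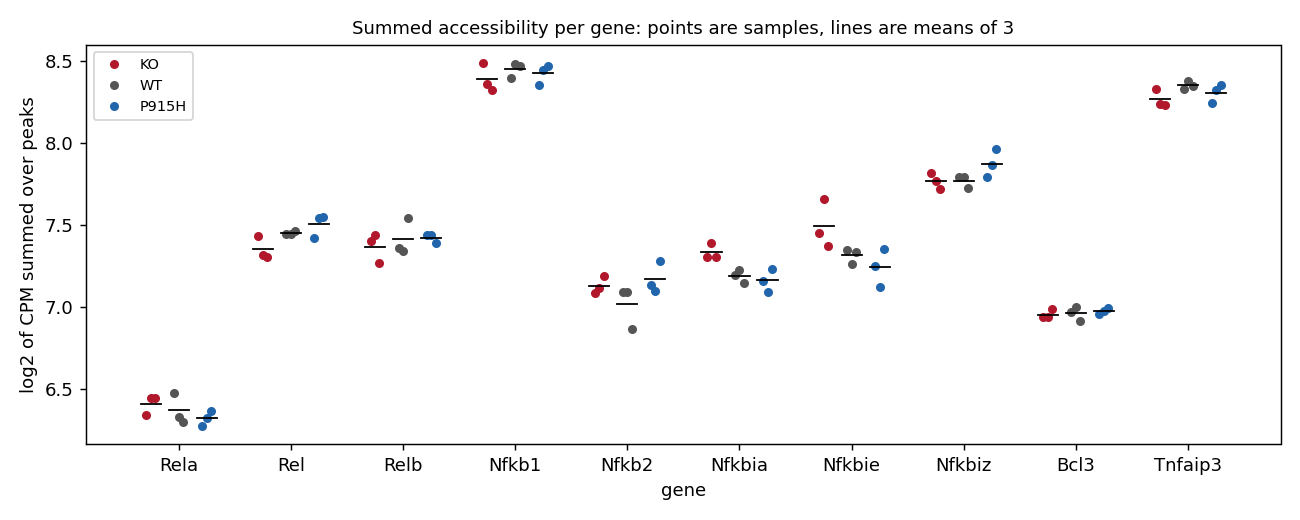
Log2 of CPM summed over all peaks of each gene (y axis, not starting at 0) in the 3 samples of each genotype, with lines at the means, for the 10 genes (x axis). At Nfkbia and Nfkbie every KO point lies above every WT and P915H point, with KO means 0.17 and 0.25 above those of P915H.

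The other genes of the pathway were grouped into 4 lists, all of whose genes had peaks. Of 109 peaks at 14 genes of the IkB kinase complex and the kinases above it, 5 were higher and 9 lower in KO than in P915H (12.8%). Map3k7, which encodes TAK1, the kinase that activates IkB kinase, was the 1 gene of the 14 whose sum was called: its KO mean was 6.90 ± 0.26 (SD, n = 3), that of WT 7.32 ± 0.15 and that of P915H 7.48 ± 0.15 (limma adjusted p = 0.0242 against P915H). Of 88 peaks at 13 adaptor and ubiquitin ligase genes, 5 were higher and 4 lower (10.2%), and of 114 peaks at 15 genes of other inhibitors 4 were higher and 1 lower (4.39%). In neither list was a gene sum called. These 3 shares lay below the 15.5% of all peaks.

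Textbook NF-kB target genes had 34 of 270 peaks higher and 14 lower in KO than in P915H (17.8%). The median log2 fold change was 0.11, against -0.01 over all peaks and 0.03 over the 121 peaks of subunits and inhibitors. Gene sums rose for 5 of the 27 targets and fell for 1, where 5.27% of all genes rose and 6.58% fell. The targets were listed with earlier results of these data known, so these values are a description and no test of NF-kB targets. Il10, the anti-inflammatory cytokine, had a KO mean of 7.24 ± 0.07 (SD, n = 3), a WT mean of 6.78 ± 0.06 and a P915H mean of 6.44 ± 0.01, with 7 of its 11 peaks higher and a limma adjusted p of 0.000252 for its sum. Cd80, a costimulatory ligand, differed by 0.56, Fas, the death receptor gene that carries the lpr change in all these mice, by 0.53, the transcription factor gene Irf1 by 0.24 and Myc by 0.23. The sum of Bcl2a1b, a survival gene, fell by 0.39. For KO against WT no peak of the 4 lists was called and the Il10 sum was (0.46, adjusted p = 0.0466), and for P915H against WT 1 Il10 peak was lower (adjusted p = 0.0473).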

How the data were processed

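The submitters' processing notes name the peak caller MACS2, limma, the aligner Bowtie2 (2.3.3), Picard (2.18.12), SAMtools and Trim Galore (0.6.5), with build mm10. What each did, and whether samples were pooled for peak calling, is not stated there. The deposited log2 values are the authors' own, for 61540 peaks in 9 samples; their antilogs sum to 0.987 to 1.01 times the nominal CPM total. Read counts are unknown, so counting error could not be estimated. Averaged over the 3 genotypes, each replicate number has the same value at any peak, so a replicate effect had been removed before deposit. The fit therefore has a replicate term, leaving 4 residual degrees of freedom per peak in place of 6.

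The 9 samples were fitted together in R 4.3.3 with limma 3.58.1, using an intensity trend, two-sided, adjusted over all peaks of a comparison, with no filter and no pseudocount. The fit was also run on simulated data with changes put into KO alone. That run covered KO against WT and not KO against P915H, and no result here rests on it. Gene sums, the log2 of antilogs added over a gene's peaks, were fitted the same way over 15036 protein-coding genes. Gene bodies came from RefSeq (GRCm38.p6); overlap means at least 1 bp. The members and lists were chosen with earlier results of these data known. The peaks named are, for each gene, that with the highest mean, those over a start (or body end), that with the smallest p in each comparison, and every called peak; of the 38 so chosen, those the results turn on are given. The Nfkbia peak that just misses the threshold was added after its values were seen. The Nfkb1 peak near a body end (chr3:135691380-135691568), also close to the threshold, likewise lies outside this rule. The alternatives changed the replicate term, scaling, filtering, an added constant, sample weights, trend, samples fitted, threshold, peak assignment and each sample left out. Tables were made in Python 3.11.15 with NumPy 2.4.6 and pandas 2.3.3, and plots with matplotlib 3.10.9.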

Additional observations from a re-analysis of the deposited data

How the results depend on the processing

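For KO against P915H, 11 of the 121 peaks were called in the reported fit. The count was 32 with no replicate block (genotype alone, 27.7% of all peaks called), 19 with sample weights (20.2% of all) and 27 at an adjusted p under 0.1 (22.0%). With overlap of the gene body alone it was 4 of 63 (6.35%, against 15.5% of all peaks). Leaving out 1 sample gave 2 to 21, while the share of all peaks called ranged from 5.24% to 17.9%. Quantile normalization (15.1% of all peaks called), 0.5 added to the antilogs (15.8%), the filter on low means (15.5%) and the 6 samples of the 2 groups (15.4%) each gave 11. Median centring gave 12 (16.1% of all) and a fit with no trend 8 (14.0% of all), 6 of them among the 11. Nearest genes of any type gave 9 of 100 (9%) and the 50 kb window 10 of 110 (9.09%), both against 15.5% of all peaks. For KO against WT the 0 calls became 5 (4.13%) with no replicate block, where 11.1% of all peaks were called, 1 with sample weights (2.50% of all), 1 at the looser threshold (4.59% of all) and 0 to 3 with a sample left out, the 3 without KO replicate 1 (5.43% of all). For P915H against WT the count was 0 under every alternative run. The summed accessibility called for KO against P915H went from 0 genes to 2 with no replicate block (Nfkbia and Nfkbie) and to 1 (Nfkbia) with the mean of log2 values in place of the sum. Part of these changes follows from construction, as the replicate effect had been removed before deposit and a looser threshold or fewer peaks were counted; otherwise the cause was not tested. The reported fit has the replicate number as a block, but whether equal numbers pair samples could not be checked, because that removal had taken the shared part out. None of the 11 called peaks changed the sign of its KO against P915H fold change under the alternatives run, while the balance of higher and lower calls turned without KO replicate 1 (9 and 12) and without P915H replicate 1 (5 and 6). Read depth per sample is unknown, and 3 samples a genotype limit the precision.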
